A study of Mus musculus with 6 samples.

Results

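The 6 stefin A genes *Stfa1*, *Stfa2*, *Stfa2l1*, *Stfa3*, *Cstdc4* and *Cstdc5*, together with cystatin B (*Cstb*), were followed through every cluster of a single-cell RNA-Seq data set of the inflamed mouse spinal cord. They are 7 of the 19449 genes in the table. The stefin A genes were chosen because they are among the genes that most set apart cluster 3, one of 3 neutrophil-like clusters, and *Cstb*, an intracellular member of the family from another locus, was taken beside them. The level of the stefin A genes in cluster 3 against other clusters is therefore a description, and no test was run on it. Because 55.4% of the UMIs of cluster 3 came from the young day 10 library, the choice also favours genes that are high in that library.

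Stefins, or type 1 cystatins, are small proteins without a signal peptide that stay inside the cell and block papain-like cysteine proteases such as cathepsins B, H, L and S. In the mouse the stefin A gene has been duplicated into a tandem array, whose transcripts are known from granulocytes and skin, while cystatin B is made in most tissues. Neutrophils carry cathepsins and serine proteases in granules, and loss of *CSTB* in humans causes a progressive myoclonus epilepsy.

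CD45+ leukocytes were sorted from spinal cords of mice with experimental autoimmune encephalomyelitis (EAE), which was induced by injecting IL-23-polarized CD4+ T cells reactive to a myelin oligodendrocyte glycoprotein (MOG) peptide into unimmunized hosts. Each of the 4 libraries pooled 4 spinal cords: young hosts (8 to 12 weeks old) on day 6, middle-aged hosts (40 to 44 weeks old) on day 6, young hosts on day 10 and middle-aged hosts on day 10. All 4 groups received the T cells, so none is untreated, and both sexes were used in the study. In addition, 2 bulk RNA-Seq libraries came from CD45int CD11b+ microglia of naive mice, 1 young and 1 middle-aged. Wherever 4 values follow each other below, they stand in the order young day 6, middle-aged day 6, young day 10 and middle-aged day 10.

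The 6 stefin A genes lie within 299 kb of chromosome 16 (GRCm38, GENCODE vM21). On the plus strand are *Stfa2l1* (36156811 to 36161953), *Cstdc4* (36184212 to 36188111, named *Gm5483* there) and *Stfa1* (36276951 to 36285373). On the minus strand are *Cstdc5* (36359382 to 36367748, *BC100530*), *Stfa2* (36403992 to 36408457) and *Stfa3* (36450537 to 36455392). *Cstb* lies elsewhere, on chromosome 10 (78425669 to 78427622, plus strand). *Csta1*, *Csta2*, *Csta3* and *Cstdc6*, further members of the same array, are treated below with the other cystatins.

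The 120 bases before the RefSeq start of each stefin A gene (GRCm38.p6) are printed because these genes rose together on day 10 in cluster 3 but by unequal amounts. Capitals mark TTTAAAA and GATAAG, 2 short motifs picked after the sequences had been read, and each line runs 5′ to 3′ on the strand of the gene.
Cstdc4 (chr16:36184092-36184211, plus strand): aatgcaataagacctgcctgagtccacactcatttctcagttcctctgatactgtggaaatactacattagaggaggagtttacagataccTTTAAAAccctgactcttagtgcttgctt
Stfa2l1 (chr16:36156691-36156810, plus strand): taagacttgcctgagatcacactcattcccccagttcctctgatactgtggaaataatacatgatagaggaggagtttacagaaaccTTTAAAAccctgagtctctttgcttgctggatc
Stfa1 (chr16:36277028-36277147, plus strand): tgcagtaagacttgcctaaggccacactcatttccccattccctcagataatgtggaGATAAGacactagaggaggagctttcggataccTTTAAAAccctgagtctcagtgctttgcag
Stfa2 (chr16:36408364-36408483, minus strand): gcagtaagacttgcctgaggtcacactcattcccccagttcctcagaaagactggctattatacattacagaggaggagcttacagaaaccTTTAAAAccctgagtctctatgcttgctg
Stfa3 (chr16:36455393-36455512, minus strand): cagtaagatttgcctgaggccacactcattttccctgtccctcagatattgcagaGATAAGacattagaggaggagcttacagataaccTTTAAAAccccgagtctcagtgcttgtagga
Cstdc5 (chr16:36367571-36367690, minus strand): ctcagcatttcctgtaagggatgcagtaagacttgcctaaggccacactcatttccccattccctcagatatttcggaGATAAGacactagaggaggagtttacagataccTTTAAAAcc
All 6 windows held TTTAAAA, which on either strand occurred in 3.26% of 32851 promoter windows of the same length. It began 29 to 33 bases before the start in 5 genes and 9 bases before it in *Cstdc5*. GATAAG was present in *Stfa1*, *Stfa3* and *Cstdc5* and absent from these windows of *Cstdc4*, *Stfa2l1* and *Stfa2* (3.01% of all windows on either strand). A further motif seen in these sequences, GAGGAGGAG, was in all 6 windows and in 1.67% of all. The 6 genes are copies within a duplicated array, so their windows are not independent. The shares of all windows therefore do not measure how unusual the matches in all 6 are. These are matches of letters, and nothing was measured on the binding of a factor there.

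Near-identical copies limit how well reads can be assigned within the array. The longest transcripts of *Stfa1* and *Cstdc5* were 97.1% identical over 617 aligned bases, and those of *Stfa2* and *Stfa2l1* 95.7% over 373, whereas the other pairs were at 75.4% to 82.4%. In the last 200 bases of the transcripts, where these libraries are read, 51.7% of the 50-base windows of *Stfa1* and 43.7% of those of *Cstdc5* were shared with another gene. The same share was 9.27% for *Stfa2* and for *Stfa2l1*, and 0 for *Cstdc4*, *Stfa3* and *Cstb*. Counts of *Stfa1* and *Cstdc5* are thus the least certain as values of single genes.

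The table holds 38057 cells in 16 clusters, with 8315, 10026, 9843 and 9873 cells per library and medians of 4704.5 to 6196 unique molecular identifiers (UMIs) per cell, where every captured transcript counts as 1 UMI. Of 37903 cell barcodes, 154 occurred in 2 libraries. Neutrophil markers were higher than in the other clusters for 9 of 13 genes in cluster 0 (median log2 ratio 0.69), 11 of 13 in cluster 3 (3.39) and 13 of 13 in cluster 6 (4.51), while the medians of the other lineages were negative in all 3. These neutrophil-like clusters held 1489, 3880, 1729 and 2159 cells (cluster 0), 235, 258, 514 and 172 cells (cluster 3) and 60, 43, 515 and 83 cells (cluster 6). The UMIs of a gene were summed over the cells of a cluster in each library and expressed per 1000000 UMIs (CPM). A UMI stands for 1 captured end of a transcript, so it does not grow with transcript length, but capture differs between genes and levels are compared here within a gene. With 1 library per age and day there are no replicates, and intervals in brackets are exact 95% limits that cover counting error only.

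Stefin A transcripts were concentrated in neutrophil-like cells. Clusters 0, 3 and 6 together held 83.0% of all UMIs of the 6 genes, with 77.0%, 85.0%, 83.8% and 81.0% in the separate libraries. By the median over libraries, each of the 6 genes was highest in cluster 3, the order that led to their choice. The 6 genes summed stood at 2055, 2666, 12664.5 and 9605 CPM in cluster 3. In cluster 0, the most numerous neutrophil-like cells, the sum was 1214, 1380, 2123 and 1411 CPM. In cluster 6 it was 804, 1280, 3022 and 1424 CPM.
Levels were far lower in lymphocytes. The T cell-like cluster 2 held 1.27, 4.81, 7.94 and 2.59 CPM of the 6 genes and the B cell-like cluster 4 held 1.12, 4.82, 14.4 and 4.24 CPM. The small mixed clusters 13 (432, 503, 2534 and 927 CPM) and 14 (594, 579, 1978 and 1421 CPM) shared with cluster 6 the lowest values on day 6 and the highest in the young on day 10. In both clusters the intervals of the day 6 libraries overlapped, so the order of the ages on day 6 is not fixed there.

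*Cstb* had another distribution. Only 18.5% of its UMIs were in the 3 neutrophil-like clusters, and the monocyte/macrophage-like cluster 1 held 65.2%. By the median over libraries it was highest in cluster 1 (1657 CPM), followed by cluster 0 (1593 CPM), the microglia-like cluster 8 (1039 CPM) and the monocyte/macrophage-like cluster 5 (662 CPM). The ranges of clusters 1 (1187 to 2273 CPM) and 0 (1376 to 2146 CPM) overlapped, so their order is not fixed by these libraries. Cluster 3 lay low in that order, with 152, 220.1, 83.9 and 169 CPM, which is 10th of the 16 clusters. Within the neutrophil-like cells the family thus divided, with *Cstb* high in cluster 0 and low in cluster 3 in all 4 libraries, and each stefin A gene higher in cluster 3 than in cluster 0 in all 4 libraries.

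The genes nearest to the members by profile were sought over 52 sums of 50 or more cells of 1 cluster and library, among 9440 genes, by Pearson's r of log2(CPM + 1). These points share libraries and cells and the r is a description. For *Stfa2l1* the nearest were *Mmp9* (0.959), *Asprv1* (0.946), *Retnlg* (0.939), *Amer2* (0.935) and *Lrg1* (0.934). For the 6 genes summed they were *Mmp9* (0.957), *S100a9* (0.944), *S100a8* (0.940), *Fpr1* (0.937) and *Retnlg* (0.936), most of which are textbook neutrophil genes. For *Cstb* they were *Sod2* (0.933), *Bri3* (0.923), *Ly6i* (0.913), *Atp6v0c* (0.898) and *Amdhd2* (0.896).
Among the members, *Cstdc4* and *Stfa2l1* were at 0.962 with each other. *Stfa1*, *Stfa2*, *Stfa3* and *Cstdc5* were at 0.919 to 0.938 among themselves, and at 0.754 to 0.868 with *Cstdc4* or *Stfa2l1*. *Cstb* was at 0.352 or less with each of the 6. The array thus fell by profile into a pair (*Cstdc4*, *Stfa2l1*) and a set of 4, a division seen in these data and used below for description.

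In cluster 3 every stefin A gene was higher on day 10 than on day 6 in both ages. For the pair, *Cstdc4* stood at 966, 1395, 4578 and 3604 CPM. *Stfa2l1* stood at 868, 1047, 3295 and 2899.65 CPM. In both genes each day 10 library lay above both day 6 libraries, and the ages were closer to each other than the days were.
The set of 4 followed. *Stfa1* stood at 39.9, 114, 1479 and 1134 CPM, and *Stfa2* at 52.6, 64.9, 1087 and 723 CPM. *Stfa3* stood at 18.1, 9.5, 425 and 162 CPM, of which the day 6 values rest on 10 and 6 UMIs. *Cstdc5* stood at 111, 36.4, 1801 and 1083 CPM, and 1 cell held 80.3% of its 61 UMIs in the young day 6 library. Here too the days did not overlap in any gene, and the young library was the higher one on day 10 in all 4. The richest cell of the middle-aged day 10 library held 21.9% of the *Stfa1*, 32.7% of the *Stfa2*, 40% of the *Stfa3* and 29.5% of the *Cstdc5* UMIs. In the young day 10 library the richest cell for each gene held 5.48%, 3.54%, 6.43% and 3.58%.

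The day effect was tested with edgeR's quasi-likelihood test over all 4523 genes of cluster 3 with enough counts, with age and day in the model and Benjamini-Hochberg adjustment. All 7 members passed the filter on low counts in clusters 0, 3 and 6. All 7 members changed between the days, 6 higher and *Cstb* lower, where 17.8% of all genes tested passed in either direction, 4.53% as higher and 13.2% as lower on day 10. The log2 fold change of day 10 over day 6 was 1.56 ± 0.315 (SE) for *Cstdc4* (edgeR adjusted p = 0.00590) and 1.46 ± 0.276 for *Stfa2l1* (edgeR adjusted p = 0.00405). For the set of 4 it was 3.91 ± 0.469 for *Stfa1* (edgeR adjusted p = 0.000285), 3.67 ± 0.353 for *Stfa2* (6.93e-05), 4.16 ± 0.363 for *Stfa3* (4.17e-05) and 4.19 ± 0.299 for *Cstdc5* (1.90e-05). *Cstb* fell by 0.86 ± 0.256 on the log2 scale (edgeR adjusted p = 0.0401), and its call was lost with DESeq2 (adjusted p = 0.278) and with edgeR under RLE scaling, the relative log expression size factors of DESeq2 (adjusted p = 0.0618). With 1 library left out the fit has no test and its day effect rests on 1 age: without either middle-aged library it was 2.20 for *Cstdc4*, 1.87 for *Stfa2l1* and 5.16 for *Stfa1*, and without either young one 0.94, 1.04 and 2.88, and none of the 7 changed direction. The difference of the rise between the pair and the set of 4 was not itself tested. The cells were assigned to cluster 3 with these genes among the ones used, so the values are those of cells that were grouped partly by them. The stefin A genes were also chosen for their lead in this cluster. The young day 10 library held 55.4% of its UMIs and 77.0% of its stefin A UMIs, so the choice favours genes higher on day 10. The count of 6 higher members beside the share of all genes is therefore no independent support for a rise.

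**Figure D1:**
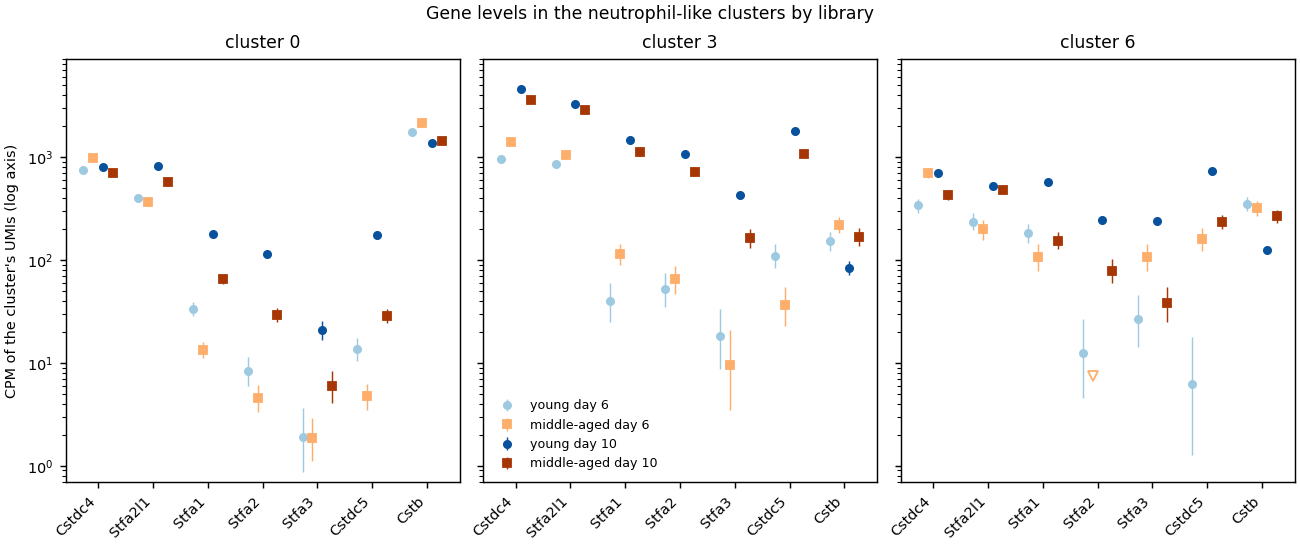
Level of each of the 7 genes in the neutrophil-like clusters 0, 3 and 6, as CPM on a log axis, by library, with exact 95% counting limits. In cluster 3 both day 10 libraries lie above both day 6 libraries for each of the 6 stefin A genes.

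Other features of cluster 3 moved with the day. The median cell held 2161, 2261.5, 4059.5 and 2883 UMIs. The 13 neutrophil markers summed to 161460, 171682, 322398 and 220806 CPM, and the late-stage genes *Mmp8*, *Mmp9*, *Retnlg*, *Cxcr2* and *Il1r2* to 12422, 12569, 59158 and 31411 CPM. Most of the late-stage sum was *Retnlg* (7058, 7486, 51064 and 25216 CPM), while *Cxcr2* went the other way (2318, 1841, 978 and 1496 CPM). The middle-granule genes *Camp*, *Ngp*, *Ltf* and *Lcn2* summed to 2473.5, 2468.5, 9940.8 and 5089.3 CPM, higher on day 10 in both ages. Of these, *Ngp* stood at 43.5, 15.8, 2708 and 81.1 CPM and *Camp* at 7.25, 4.75, 655 and 3.60 CPM. *Ngp* and *Camp* were thus high in the young day 10 library alone, which does not hold for the sum. The early-granule genes *Elane*, *Mpo*, *Prtn3* and *Ctsg* summed to at most 16.2 CPM in any library.
Some markers of other lineages moved with the day as well. The 9 monocyte/macrophage markers summed to 313, 333, 2889 and 2271 CPM, and *Chil3* alone made up 127, 144, 2059 and 1990 CPM of this, a gene that neutrophils also transcribe. *Ly6c2*, a marker of inflammatory monocytes, stood at 145, 143, 749 and 219.9 CPM and *F13a1* at 3.62, 1.58, 43.1 and 10.8 CPM, so both were highest in the young day 10 library. The other 6 markers of the list had at most 36 UMIs in any library. The T cell markers summed to at most 54.1 CPM and the microglial markers to at most 73.9 CPM. The part of cell maturity, of depth per cell and of the libraries themselves in the day effect was not tested.

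The make-up of the stefin A pool shifted accordingly. *Cstdc4* and *Stfa2l1* together supplied 89.2% and 91.6% of the stefin A UMIs of cluster 3 in the young and middle-aged day 6 libraries, and 62.2% and 67.7% in those of day 10. The share of *Cstdc5* was 5.38%, 1.37%, 14.2% and 11.3%, and that of *Stfa1* 1.94%, 4.28%, 11.7% and 11.8%. The pair held more in cluster 0, with 95.3%, 98.2%, 76.9% and 90.9%. It held less in cluster 6, with 71.8%, 70.8%, 40.6% and 64.3%. In each cluster the lowest share of the pair was in the young day 10 library.

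**Figure D2:**
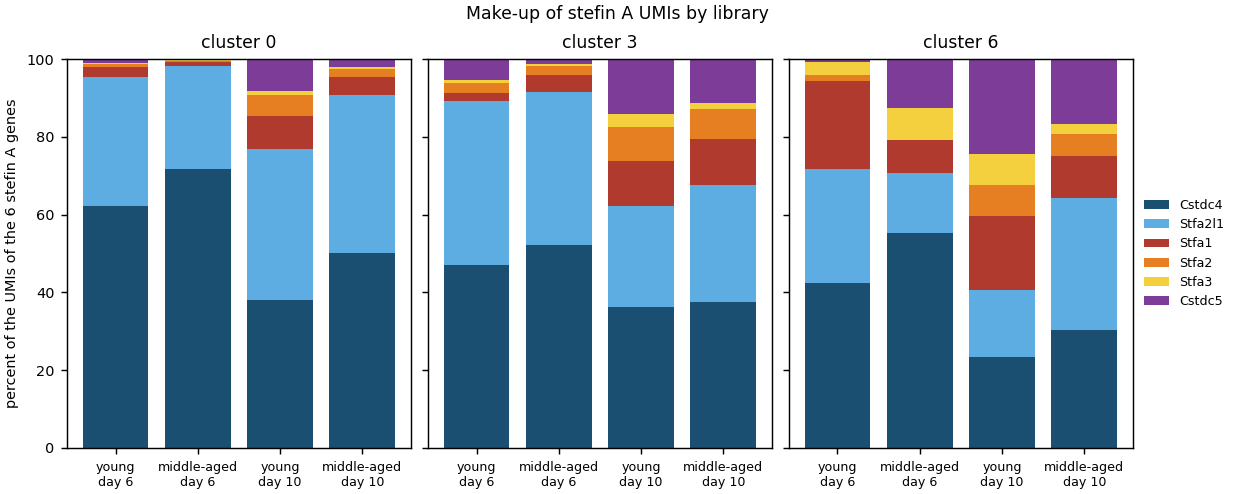
Share of each of the 6 genes in the stefin A UMIs of clusters 0, 3 and 6, in percent, by library. *Cstdc4* and *Stfa2l1* make up 89.2% and 91.6% in cluster 3 on day 6 and 62.2% and 67.7% on day 10.

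The transcripts were spread unevenly over cells. In cluster 3 a stefin A UMI was found in 50.6% [44.1 to 57.2], 53.9% [47.6 to 60.1], 86.8% [83.5 to 89.6] and 79.1% [72.2 to 84.9] of cells (exact binomial limits). When cells were thinned at random to 2000 UMIs each, without the 100, 94, 27 and 11 cells below that depth, these shares became 51.9%, 53.7%, 84.6% and 77.6%. In the T cell-like cluster 2, at median depths of 4715, 5034, 6225 and 5345 UMIs, they were 0.689%, 2.02%, 5.46% and 1.30%, or 0.392%, 0.822%, 1.60% and 0.382% when thinned. The shares in cluster 3 were thus far above those of a cell type that should lack the genes.
The median cell of cluster 3 held 1, 1, 26 and 12.5 stefin A UMIs and the highest 73, 142, 407 and 660. In the richest cell these transcripts were 1.72%, 3.70%, 7.69% and 7.95% of all its UMIs. The top 10% of cells held 58.0%, 61.8%, 42.8% and 49.7% of the stefin A UMIs of the cluster, so the pool was spread over more cells on day 10 than on day 6.

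The pair was found in more cells than the set of 4. UMIs of *Stfa2l1* were in 40%, 42.2%, 75.3% and 71.5% of the cells of cluster 3 and those of *Cstdc4* in 31.5%, 32.6%, 61.3% and 59.3%. *Cstdc5* was found in 2.98%, 1.94%, 31.5% and 23.8%, or 2.22%, 1.83%, 29.8% and 23.0% when thinned to 2000 UMIs. *Stfa1* was found in 3.83%, 5.04%, 22.2% and 21.5%, *Stfa2* in 2.55%, 3.49%, 29.6% and 22.1%, and *Stfa3* in 2.13%, 1.94%, 20.8% and 9.88%.
Most cells with a gene of the set of 4 also held a gene of the pair. UMIs of both sets were in 18 of 235, 19 of 258, 240 of 514 and 68 of 172 cells, and UMIs of the set of 4 alone in 5, 6, 23 and 5 cells. UMIs of the pair alone were in 40.9%, 44.2%, 35.6% and 36.6% of cells. All 6 genes were found together in no cell of day 6, in 28 young cells (5.45%) and in 5 middle-aged cells (2.91%) of day 10, at the unequal depths given above.

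In cluster 0 the members did not all move one way between the days, and the values of the pair depended on the scaling. *Cstdc4* stood at 757, 989.9, 810.3 and 707 CPM and *Stfa2l1* at 400.2, 366, 823 and 576 CPM. *Stfa1* stood at 33.6, 13.4, 179 and 64.9 CPM and *Cstdc5* at 13.6, 4.76, 175 and 28.7 CPM. *Stfa2* stood at 8.30, 4.57, 115 and 29.2 CPM, *Stfa3* at 1.92, 1.85, 20.7 and 5.92 CPM, and *Cstb* at 1752, 2146, 1376 and 1434 CPM. For the set of 4 both day 10 libraries lay above both day 6 libraries, for *Cstb* both lay below, and for *Cstdc4* the days overlapped.
In the edgeR test 6 of 7 members passed, where 54.4% of 9593 genes did (27.2% higher and 27.2% lower), a share against which the count of members is to be read. *Stfa1* (log2 fold change 1.59 ± 0.150, edgeR adjusted p = 7.38e-07), *Stfa2* (2.49 ± 0.247, 1.19e-06), *Stfa3* (1.75 ± 0.389, 0.00169) and *Cstdc5* (2.46 ± 0.233, 8.10e-07) were higher on day 10. *Cstb* fell by 1.22 ± 0.133 (edgeR adjusted p = 3.10e-06). *Cstdc4* was called lower, by −0.95 ± 0.154 (edgeR adjusted p = 0.000123), and *Stfa2l1* was at 0.09 ± 0.138 (edgeR adjusted p = 0.607). The trimmed mean (TMM) scaling shifted day 10 against day 6 by 0.73 (young) and 0.79 (middle-aged) on the log2 scale in this cluster. On the CPM scale *Cstdc4* was lower on day 10 in the middle-aged but slightly higher in the young, so its direction in the young turns with the scaling. *Stfa2l1* was higher in both ages on that scale and near 0 by edgeR, and the directions of the other 5 genes were alike on both scales. *Stfa3* had a day effect of 2.69 without either middle-aged library and of 0.89 without either young one.

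In cluster 6, which had 60 and 43 cells on day 6, 5 of 7 members passed the day test, where 7.79% of 4954 genes did (1.64% higher and 6.16% lower). *Stfa2* stood at 12.4, 0, 244 and 78.9 CPM, where the 0 allows up to 7.47 CPM. Its log2 fold change, which depends on the prior count where a library is at 0, was 4.70 ± 0.477 (edgeR adjusted p = 4.00e-07). With 6, 0, 1104 and 56 UMIs it met the filter on low counts through the day 10 libraries alone, so its call is not independent of the filter. *Cstdc5* stood at 6.18, 159, 740.3 and 237 CPM (2.60 ± 0.735, edgeR adjusted p = 0.0287), and 1 cell held 81.3% of its 64 UMIs in the middle-aged day 6 library. *Stfa2l1* stood at 237, 199, 523 and 485 CPM (1.11 ± 0.271, edgeR adjusted p = 0.0108) and *Stfa1* at 181, 107, 574 and 155 CPM (1.08 ± 0.328, edgeR adjusted p = 0.0448).
*Cstb* was lower on day 10, with 352, 319, 126 and 266 CPM (−0.99 ± 0.282, edgeR adjusted p = 0.0297). *Cstdc4*, with 340.0, 707, 703 and 431 CPM, and *Stfa3*, with 26.8, 107, 237 and 38.0 CPM, did not pass (0.07 ± 0.363 and 0.76 ± 0.628, edgeR adjusted p = 0.960 and 0.623). Both genes shared the order of a high middle-aged value on day 6 and a high young value on day 10. Without either young library the day effects of *Stfa1*, *Cstdc5* and *Cstb* were 0.25, 0.28 and −0.55, and without either middle-aged one 1.74, 6.97 and −1.41. Without the cells that carried at least 2 UMIs from markers of other lineages, *Stfa2* alone kept its call here, and under DESeq2 *Stfa2* and *Stfa2l1* did.

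**Figure D3:**
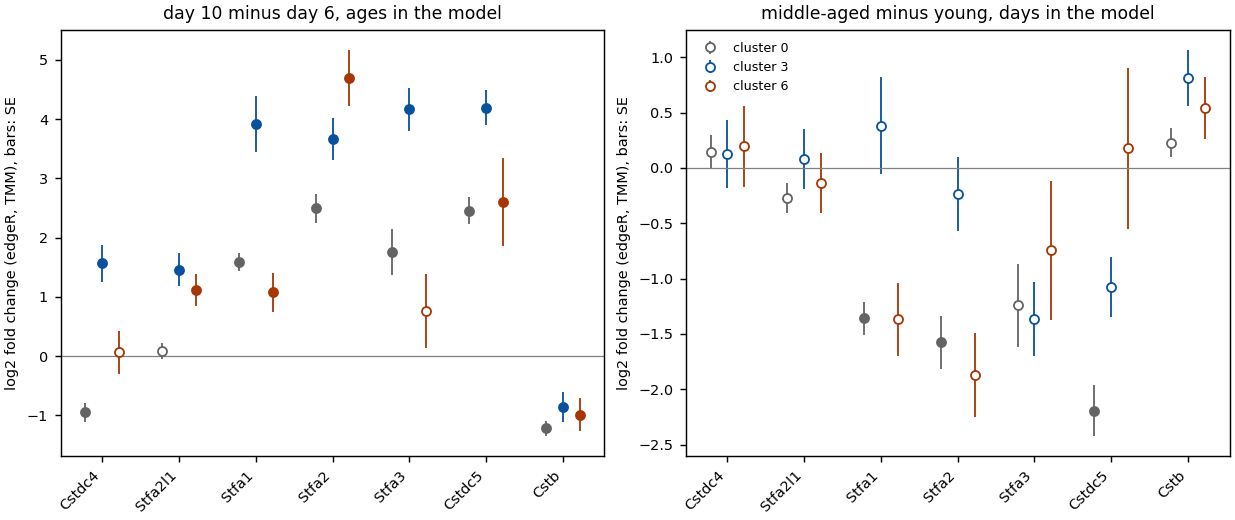
Log2 fold changes of the 7 genes by edgeR with their standard errors in clusters 0, 3 and 6, for day 10 over day 6 and for middle-aged over young. The day effect of the 6 stefin A genes in cluster 3 runs from 1.46 to 4.19, and the age effects that passed are *Stfa1*, *Stfa2* and *Cstdc5* in cluster 0, all lower in the middle-aged.

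Fewer members passed for age than for day. In cluster 0 the test called 3 of 7 members, *Stfa1* (−1.36 ± 0.149, edgeR adjusted p = 0.00116), *Stfa2* (−1.58 ± 0.240, edgeR adjusted p = 0.0220) and *Cstdc5* (−2.20 ± 0.230, edgeR adjusted p = 0.00116). All 3 were lower in the middle-aged on both days, where 0.208% of 9593 genes passed, 0.125% as lower. Few cells carried these transcripts. Of the *Cstdc5* UMIs, the top 10 cells held 95.3% in the young on day 6, where 13 cells had any, and 67.9% on day 10. For *Stfa1* the shares in the young were 72.8% and 54.0%, and for *Stfa2* 58.5% on day 10. In the middle-aged on day 10 they were 55.8% (*Cstdc5*), 53.1% (*Stfa1*) and 51.2% (*Stfa2*). *Stfa3* had a log2 fold change of −1.24 ± 0.374 (edgeR adjusted p = 0.264), *Stfa2l1* of −0.27 ± 0.138, *Cstdc4* of 0.15 ± 0.152 and *Cstb* of 0.23 ± 0.131, none of which passed. With DESeq2 *Stfa1* and *Cstdc5* kept the call and *Stfa2* lost it. Without either day 6 library the age effects of the 3 were −1.44 (*Stfa1*), −1.95 (*Stfa2*) and −2.58 (*Cstdc5*), and without either day 10 library −1.24, −0.78 and −1.43. The choice of the stefin A genes favours those high in the young day 10 library. The count of 3 members beside the share of all genes is therefore no independent support for a lower level in the middle-aged.
In cluster 3 edgeR called 0 of 7 members for age, where 0.929% of 4523 genes passed. At an unadjusted p under 0.05 it gave 3 members, where 11% of genes (496) passed, and DESeq2 called 0. These 3 were *Stfa3* (−1.37 ± 0.333, edgeR adjusted p = 0.104), *Cstdc5* (−1.08 ± 0.275, edgeR adjusted p = 0.118) and *Cstb* (0.81, edgeR adjusted p = 0.225). In cluster 6 edgeR likewise called 0 of 7, where 0.0202% of 4954 genes passed, against 3.55% (176) at an unadjusted p under 0.05 with *Stfa1* (−1.37 ± 0.329) and *Stfa2* (−1.87 ± 0.380) among them, and DESeq2 called 0.

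The ages stood in opposite order on the 2 days for the stefin A sum. Taken as log2 of the middle-aged CPM over the young CPM, the ratio on day 6 was 0.18 [0.14 to 0.23] in cluster 0, 0.38 [0.27 to 0.49] in cluster 3 and 0.67 [0.48 to 0.86] in cluster 6. On day 10 it was −0.59 [−0.63 to −0.55], −0.40 [−0.44 to −0.36] and −1.09 [−1.18 to −0.99]. In cluster 6 on day 6, 1 middle-aged cell held 199 of the 514 stefin A UMIs, and without the cell with most stefin A UMIs in each library the ratio was 0.18. The sum was higher in the middle-aged on day 6 and lower on day 10 in each of the 3 clusters, with 1 library behind each value and no test of the difference. Single genes did not all share this order on day 6. In cluster 0 only *Cstdc4* was higher in the middle-aged (757 and 989.9 CPM, young first), and *Stfa3* was nearly level (1.92 and 1.85 CPM). In cluster 3 *Stfa3* and *Cstdc5* were lower in the middle-aged on day 6, and in cluster 6 *Stfa2l1*, *Stfa1* and *Stfa2* were.
On day 10, members more than 2-fold lower in the middle-aged numbered 4 of 7 in cluster 0, where 0.311% of genes were, and 4 of 7 in cluster 6, where 1.09% were. They were *Stfa1*, *Stfa2*, *Stfa3* and *Cstdc5* in both clusters. In cluster 3 *Stfa3* was the 1 such member, where 4.21% of genes were. The choice of the stefin A genes favours those high in the young day 10 library, the divisor of these ratios. These counts are therefore no independent support for an age difference. *Cstb* differed the other way on day 10 in clusters 3 and 6, with log2 ratios of 1.01 and 1.08. The ratio in cluster 3 rests on 181 young and 94 middle-aged UMIs. In cluster 0, where *Cstb* was far higher, the ages were nearly level on day 10 (1376 CPM young and 1434 CPM middle-aged).

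Because clusters 0, 3 and 6 were separated partly by these genes, they were also added together for each library, a sum chosen after the data had been seen. Over all neutrophil-like cells the stefin A sum stood at 1261, 1449, 4503 and 2061 CPM, and the log2 ratio between middle-aged and young was 0.20 on day 6 and −1.13 on day 10. *Cstdc5* stood at 22.3, 12.02, 713 and 133 CPM, *Stfa1* at 46.7, 22.4, 586 and 159 CPM, *Stfa2* at 12.9, 7.78, 353 and 89.2 CPM, and *Stfa3* at 5.58, 6.01, 185 and 21.5 CPM. *Cstdc4* stood at 742, 1002, 1489 and 908 CPM, so that the middle-aged libraries differed little between the days, and *Stfa2l1* at 431, 398, 1176 and 750.4 CPM. *Cstb* was higher in the middle-aged on both days, with 1479, 1974, 627 and 1215 CPM, and lower on day 10 than on day 6 in both ages. The sum mixes the level within each cluster with the share of cells in each, and no test was run on it.

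*Cstb* was then tested in 4 clusters with monocyte, macrophage or microglial markers. It stood at 1187, 2273, 1874 and 1441 CPM in the monocyte/macrophage-like cluster 1, with an age effect of 0.33 (edgeR adjusted p = 1.00) and a day effect of −0.17 (edgeR adjusted p = 0.701). In the microglia-like cluster 8 it stood at 513, 875, 1613 and 1203 CPM and was higher on day 10 (1.32 ± 0.211, edgeR adjusted p = 0.000156), where 13.4% of 8371 genes passed. This is the direction opposite to that in the neutrophil-like clusters, and the age effect there was 0.17. The day effect was 0.72 without either young library and 1.95 without either middle-aged one.
Cluster 10, also microglia-like, had 255, 536, 479 and 536 CPM, with an age effect of 0.64 (edgeR adjusted p = 0.999) and a day effect of 0.60 (edgeR adjusted p = 0.248). In cluster 5, with 466, 746, 624 and 699.6 CPM, the age effect was 0.45 (edgeR adjusted p = 0.316) and the day effect −0.13 (edgeR adjusted p = 0.605). Across these clusters *Cstb* passed 0 of 4 age tests, where 0.0982%, 0.655%, 0.0956% and 0.142% of genes did in clusters 1, 5, 8 and 10, against 2 (clusters 5 and 10) at an unadjusted p under 0.05. For day it passed in cluster 8 alone of the 4, where 29.9%, 25.5% and 6.64% of genes passed in clusters 1, 5 and 10. In clusters 1 and 8 the middle-aged library was the higher one on day 6 and the lower one on day 10.

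Stefin A genes also passed in these 4 clusters, at levels far below those of the neutrophil-like cells. Of the members tested, *Cstb* included, 2 of 6 passed for day in cluster 1, where 29.9% of genes did, a similar share. The counts were 4 of 5 in cluster 5 (25.5% of genes), 3 of 5 in cluster 8 (13.4%) and 1 of 3 in cluster 10 (6.64%). For age 1 of 5 passed in cluster 8 (0.0956% of genes) and 0 in clusters 1, 5 and 10. In the microglia-like cluster 8 *Cstdc5* stood at 1.54, 0.769, 112 and 12.4 CPM and passed for age (−3.10 ± 0.356, edgeR adjusted p = 9.52e-05) and for day (5.64 ± 0.542, edgeR adjusted p = 3.81e-07). Of its 281 UMIs in the young day 10 library, 1 cell held 95.7%. *Stfa2*, at 0, 0, 18.4 and 7.60 CPM, also passed for day there (edgeR adjusted p = 0.000259), where the counts of 0 allow up to 4.61 and 2.31 CPM. In this cluster *Cstdc5* and *Stfa2* met the filter on low counts through the day 10 libraries alone, so their day calls are not independent of the filter.
In cluster 1, *Stfa2* (0.0449, 0.343, 7.46 and 0.449 CPM, edgeR adjusted p = 0.0136) and *Cstdc5* (0.269, 0.419, 13.8 and 0.899 CPM, edgeR adjusted p = 0.00226) were called higher on day 10, and the high value of each was in the young library alone. *Stfa2* met the filter there through the day 10 libraries alone. In cluster 5, *Stfa1* (0.256, 3.25, 49.3 and 3.57 CPM, edgeR adjusted p = 0.0102), *Stfa2* (0.513, 2.36, 18.0 and 1.43 CPM, edgeR adjusted p = 0.0444) and *Stfa2l1* (14.7, 19.9, 43.3 and 26.7 CPM, edgeR adjusted p = 0.0447) were called higher and *Cstdc4* (31.0, 39.1, 19.0 and 26.4 CPM, edgeR adjusted p = 0.00203) lower. A single cell held 89.2% of the 213 UMIs of *Stfa1* in the young day 10 library of that cluster. For *Stfa2* the richest cell there held 61.5% of 78 UMIs, and for *Stfa2l1* 41.2% of 187. In cluster 10, *Stfa2l1* was called higher on day 10 (18.3, 15.9, 38.1 and 29.4 CPM, edgeR adjusted p = 0.0126). On day 10 the richest cell held 26.9% of its 134 young UMIs and 60% of its 95 middle-aged UMIs. Cells with fewer than 5 UMIs of the neutrophil markers numbered 1670 of 2383, 1687 of 2760, 480 of 2166 and 1318 of 2336 in cluster 1. In cluster 5 they numbered 626 of 817, 232 of 641, 49 of 409 and 145 of 344. The part of neutrophil RNA or of mixed droplets in these values was not tested.

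**Figure D4:**
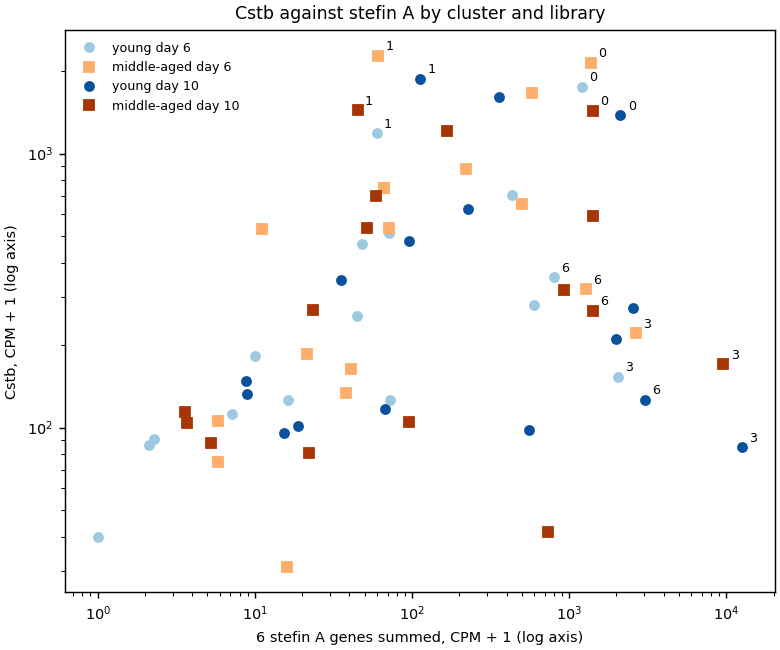
Level of *Cstb* against that of the 6 stefin A genes summed, each as CPM on a log axis, with 1 point per cluster and library. Cluster 3 lies at high stefin A and low *Cstb*, cluster 0 is high in both, and cluster 1 is high in *Cstb* only.

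In naive microglia the stefin A genes were not detected. Each of the 6 had 0 of 79373420 counts in the young and 0 of 76293436 in the middle-aged library, while *Cstb* had 878 and 965 counts (11.1 and 12.6 CPM, log2 ratio 0.19 [0.06 to 0.33], no replicate). The neutrophil transcript *S100a8* had 2805 and 3383 counts in the same libraries. In such sorted bulk cells, fewer cells of a type and less RNA per cell cannot be told apart.

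Of 7 other cystatins, 3 had enough counts for the test in cluster 3. *Csta2*, a neighbour of the stefin A genes in the array, was higher on day 10 (21.7, 20.6, 71.4 and 162 CPM, log2 fold change 2.12, edgeR adjusted p = 0.00191), and it shares windows with *Cstdc4*. *Cst3*, which encodes the secreted cystatin C, had the highest CPM of them (679.5, 570.0, 729 and 1090.3 CPM). The median log2 day effect of the 3 was 0.28 and that of all genes 0.03.
The proteases are represented by a list of 11 genes, the cysteine cathepsins and legumain, the latter not a target of stefins. In cluster 3, 7 were tested, and 1 passed between the days, *Ctsz*, which encodes cathepsin Z and fell by 0.92 (edgeR adjusted p = 0.0307), with a median of −0.57 over the list. *Ctss*, which encodes cathepsin S, passed for age there (141, 348, 90.4 and 310.0 CPM, log2 fold change 1.58, edgeR adjusted p = 0.0340), and *Ctsb* was at 1.31 (edgeR adjusted p = 0.0784). In cluster 0, 5 of 10 tested were lower on day 10 (*Ctsz* −1.89, *Ctsb* −1.34, *Ctsh* −1.16, *Ctss* −0.79 and *Ctsc* −0.58) and *Ctsk* was higher, with a list median of −0.46. In cluster 6, *Ctsz* (−1.23) and *Ctsb* (−1.09) were lower among 7 tested. These lists were set with earlier results of the data known, and their counts are to be read against the shares of all genes given above.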

How the data were processed

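Per the labels, the authors counted the 4 single-cell libraries (10x Genomics) with Cell Ranger 3.1.0 on mm10 with GENCODE genes. They then filtered cells and genes, integrated the libraries and clustered the cells in Seurat. What was deposited is a table of UMI counts, not normalized, with the number of the cluster to which each cell belongs. Integration served the clustering and did not alter the counts. The bulk files hold unnormalized counts of reads, which the authors aligned with HISAT2 and assigned to genes with featureCounts without regard to strand.

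UMIs were summed by cluster and library and scaled to counts per 1000000 (CPM). The members and gene lists were chosen with earlier results of these data known. The effects of age and day were tested per cluster on the 4 sums with edgeR 4.0.16 and limma 3.58.1 in R 4.3.3, by quasi-likelihood with TMM scaling and both factors in the model. Genes needed 10 counts in at least 2 libraries, p-values were adjusted over all genes of the cluster by the Benjamini-Hochberg method, and a gene was called at an adjusted p under 0.05. With 1 residual degree of freedom the model holds no term for a difference of the age effect between days, and such a difference enters the residual. As 1 pool of cords stands for each age and day, p-values measure only the spread between these libraries around the additive model. DESeq2 1.42.0, RLE size factors, no filter and the removal of cells with other lineages' markers were alternatives. No doublet caller was run. Ratios, intervals (exact Poisson or binomial) and thinning used scipy 1.17.1, numpy 2.4.6 and pandas 2.3.3 under Python 3.11.15, with matplotlib 3.10.9 for figures. Transcript identity was computed with Biopython 1.88 from the reference transcripts of GRCm38, and shared windows are those found in another gene's transcript. Promoter sequences are from RefSeq (GRCm38.p6), where 6 of the 7 members matched. The scripts were tested on simulated data.

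The genes named are the 7 members, genes of the cystatin and cathepsin lists that passed in cluster 3 or had its highest CPM, and the 5 genes nearest by profile to *Stfa2l1*, to the stefin A sum and to *Cstb*. Genes of these lists that passed in clusters 0 and 6, and stage or lineage genes given beside the day effect, were named after their values were seen. Flow cytometry and clinical data were not analysed here.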

Additional observations from a re-analysis of the deposited data

Results flagged for a closer look

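In the neutrophil-like clusters several values differed between the ages one way on day 6 and the other way on day 10. Each rests on 1 library per age and day, and the difference between the days was not tested. The log2 ratios of middle-aged over young CPM of the 6 stefin A genes summed were 0.18 and −0.59 in cluster 0, 0.38 and −0.40 in cluster 3 and 0.67 and −1.09 in cluster 6, day 6 first. For *Cstdc4*, which contributes most to the sum in cluster 3, they were 0.39 and −0.20 in cluster 0, 0.53 and −0.35 in cluster 3 and 1.06 and −0.71 in cluster 6. In cluster 3 the same held for *Stfa2l1* (0.27 and −0.18) and *Stfa1* (1.52 and −0.38), the latter with 22 and 72 UMIs on day 6. In cluster 6 it held for *Stfa3* (1.999 and −2.64) and *Cstdc5* (4.69 and −1.65). The day 6 value of *Cstdc5* there rests on 3 UMIs in 60 young and 64 UMIs in 43 middle-aged cells, of which 1 cell held 81.3%. For *Cstdc4* in cluster 6, 1 cell held 48.2% of the 284 UMIs of the middle-aged day 6 library.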

How the results depend on the processing

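No paired analysis was possible because the labels give 1 library per age and day and no number that would tie libraries together. With 1 library left out, the fits have no test and each effect rests on 1 age or 1 day, and 162 of 200 fold changes of single genes moved by more than their standard error. Over these fits *Cstb* ranged from −0.39 to 1.06 (age) and −0.89 to 0.56 (day) in cluster 1, from 0.18 to 0.73 and −0.40 to 0.15 in cluster 5, from −0.43 to 0.81 and 0.72 to 1.95 in cluster 8, and from 0.16 to 1.14 and 0.12 to 1.10 in cluster 10.

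The number of all genes called depended on the settings. For age it was 20 in cluster 0, against 35 with RLE size factors, 181 without a filter, 5 with DESeq2 and 178 with cells of other lineages left out. In cluster 3 it was 42, against 0 with RLE, 182 without a filter and 99 with those cells left out. In cluster 6 it was 1, against 5 without a filter and 0 with RLE, with DESeq2 and with those cells left out. For day, DESeq2 called 2929 genes in place of 5218 in cluster 0, 381 in place of 803 in cluster 3 and 159 in place of 386 in cluster 6, where 72 were called with cells of other lineages left out.

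Members called for age rose from 0 to 2 in cluster 3, *Stfa3* and *Cstdc5*, without a filter and with cells of other lineages left out. They rose from 0 to 2 in cluster 6, *Stfa1* and *Stfa2*, without a filter. For day in cluster 6 they went from 5 to 2 with RLE or DESeq2 and to 1 with cells of other lineages left out. The cause of these moves was not tested.

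The summed log2 ratios kept their sign under each alternative run. In cluster 0 they were 0.13 (day 6) and −0.29 (day 10) as a mean over cells, 0.27 with TMM scaling (day 6) and −0.67 over cells with 2000 or more UMIs (day 10). In cluster 3 they were 0.61 with TMM on day 6, and on day 10 −0.51 as a mean over cells, −0.55 with TMM and −0.55 without the cell with most stefin A UMIs in each library, an alternative added after the data had been seen. In cluster 6 the mean over cells gave 0.42 and −0.88, TMM 0.91 and −1.21, and the removal of the top cell 0.18 and −1.39. Thinned to 1000 UMIs, 45.5% of middle-aged day 6 cells of cluster 3 held a stefin A UMI. Of 200 fold changes of single genes under other settings, 179 kept their side of the threshold, 8 gained and 13 lost the call, and none of the called ones reversed. Counts of 10 or fewer UMIs on day 6 limit *Stfa3* in cluster 3, and 60 and 43 cells limit cluster 6.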

Other observations

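Outside the neutrophil-like clusters, *Stfa1* stood apart in cluster 12, whose cells express genes of division and of granulocytes and which was left unnamed, with 8.90, 0, 309 and 467 CPM. The cluster held 6, 4, 131 and 19 cells, so the highest value is 127 UMIs from 19 middle-aged cells. The order of days and ages there rests on few cells. The other 5 stefin A genes stood at 114 CPM or less there, and the day 6 libraries held 8 (young) and 1 (middle-aged) stefin A UMIs in all.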
